A study of Mus musculus with 12 samples.

Results

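The cyclic nucleotide signaling machinery was taken as the genes whose symbols name adenylyl cyclases (Adcy), phosphodiesterases (Pde), catalytic and regulatory subunits of protein kinase A (Prkac, Prkar), A-kinase anchoring proteins (Akap) and CREB factors (Creb, Crem). In the deposited count table, 63 of the 20114 entries that name a single locus matched these symbol patterns. They are 10 cyclases, 23 genes with a Pde symbol, 6 protein kinase A subunits, 16 anchors and 8 CREB factors. Pde4dip, a scaffold protein of centrosomes and the Golgi, matches the pattern and is counted with the phosphodiesterases although it is no enzyme. Of the 63 members, 57 had enough counts to be tested. The 6 untested members were Adcy8, Akap3, Akap4, Creb3l3, Pde6a and Pde6c. The rule used symbols and no expression values.

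RNA was sequenced from primary mammary epithelial cells of adult female mice aged 9 weeks, sorted by fluorescence-activated cell sorting (FACS), in 3 groups of 4 libraries. Recombined cells were green and SmoM2 positive and came from mT-mG/SmoM2;MMTV-Cre animals. Unrecombined cells were red and SmoM2 negative and came from animals of the same genotype. Wild type cells came from animals with the mT-mG/SmoM2 alleles and no Cre. SmoM2 is a mutant Smoothened (Smo) that signals without ligand in the Hedgehog pathway, and mT-mG is a reporter that turns from red to green membrane fluorescence after Cre acts. The MMTV promoter that drives Cre is a mouse mammary tumor virus promoter, used for expression in mammary epithelium and known to be active in salivary gland too. The strain background, common to all 3 groups, mixed Swiss Webster, C57BL/6 and 129X1/SvJ. Which animals, and how many, gave each library is not stated, so p-values measure the spread between libraries, which may be technical. In sorted bulk cells, fewer cells of a type and less RNA per cell cannot be told apart.

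Membrane adenylyl cyclases make cAMP from ATP after stimulatory G proteins act on them, and some of them are restrained by inhibitory G proteins. Phosphodiesterases break down cAMP and cGMP, and cAMP frees the catalytic subunits of protein kinase A from the regulatory ones. Anchors hold the kinase at chosen places in the cell, and CREB factors carry the signal to genes with a cAMP response element. In the Hedgehog pathway, protein kinase A phosphorylates Gli factors and favors their processing to repressors, and Smo can couple to inhibitory G proteins.

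Promoters of the members that passed the test are shown because these genes carry the differences between groups described below. RefSeq windows of GRCm38.p6, from 250 bases before to 50 bases after a transcript start, were matched by symbol for 51 of the 63 members, with 98 windows in all. Pde3b is among the members with no window. In the sequences, capitals mark a match to TGACG, the short form of the cAMP response element, or to its other strand, CGTCA. Each sequence is 1 of the windows of its gene, the one with a short form where a window has one. The windows are chr8:88282742-88283041 on the plus strand for Adcy7, chr13:68999492-68999791 on the minus strand for Adcy2, and chr4:102421305-102421604 on the plus strand for Pde4b. Those of Pde4dip and Pde8b are chr3:97767965-97768264 and chr13:95223001-95223300, both on the minus strand.
Adcy7: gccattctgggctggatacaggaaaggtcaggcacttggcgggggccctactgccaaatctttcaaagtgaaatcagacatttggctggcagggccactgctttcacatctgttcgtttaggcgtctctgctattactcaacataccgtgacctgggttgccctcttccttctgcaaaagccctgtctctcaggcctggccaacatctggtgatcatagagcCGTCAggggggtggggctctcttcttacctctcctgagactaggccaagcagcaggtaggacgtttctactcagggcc
Adcy2: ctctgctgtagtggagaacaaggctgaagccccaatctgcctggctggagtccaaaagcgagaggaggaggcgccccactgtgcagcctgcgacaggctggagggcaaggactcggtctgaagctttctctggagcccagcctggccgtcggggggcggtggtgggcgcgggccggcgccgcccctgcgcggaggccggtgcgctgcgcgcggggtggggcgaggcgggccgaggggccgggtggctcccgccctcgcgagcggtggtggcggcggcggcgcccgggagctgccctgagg
Pde4b: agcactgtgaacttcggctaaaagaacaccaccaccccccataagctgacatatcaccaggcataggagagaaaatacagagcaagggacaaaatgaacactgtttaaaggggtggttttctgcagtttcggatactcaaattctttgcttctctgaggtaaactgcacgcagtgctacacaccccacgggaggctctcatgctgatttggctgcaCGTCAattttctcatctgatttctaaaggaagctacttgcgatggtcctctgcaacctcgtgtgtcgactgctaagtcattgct
Pde4dip: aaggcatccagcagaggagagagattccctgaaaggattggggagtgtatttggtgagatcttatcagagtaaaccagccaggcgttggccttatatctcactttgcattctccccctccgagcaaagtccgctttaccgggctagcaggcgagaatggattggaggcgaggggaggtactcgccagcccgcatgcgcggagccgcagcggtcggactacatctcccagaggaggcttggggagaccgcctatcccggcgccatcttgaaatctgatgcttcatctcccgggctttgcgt
Pde8b: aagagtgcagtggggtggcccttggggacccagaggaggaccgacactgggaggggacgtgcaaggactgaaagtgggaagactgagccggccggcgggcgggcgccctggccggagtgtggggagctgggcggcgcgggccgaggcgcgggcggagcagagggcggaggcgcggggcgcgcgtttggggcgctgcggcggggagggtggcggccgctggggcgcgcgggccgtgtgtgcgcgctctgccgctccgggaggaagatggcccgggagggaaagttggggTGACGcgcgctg
The windows shown for Adcy7 and Pde4b hold the short form 28 and 34 bases before the start. It was in 1 of 3 windows of Adcy7, 1 of 4 of Pde4b and 1 of 5 of Pde8b. No match to the short form was found in the single window of Adcy2 or in the 2 windows of Pde4dip.

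Over both strands, the short form was in 22 of the 98 member windows (22.4%) and in 20.8% of the 32851 windows of all genes. Counted by gene, 19 of the 51 members (37.3%) had it in at least 1 window, beside 23% of 27025 genes, which have fewer windows each. The full element TGACGTCA, which contains the short form on each strand, was in 3 member windows (3.06%) and in 1.79% of all windows. It was found in 2 members (3.92%, beside 2.03% of genes), Creb5, which encodes a CREB family factor, and Prkar1a, which encodes the regulatory subunit RI alpha. The 2 matching windows of Prkar1a hold the same copy of it. The 60 bases around it are shown for Creb5 (chr6:53287232-53287291, plus strand) and Prkar1a (chr11:109650874-109650933, plus strand), with the full element in capitals.
Creb5: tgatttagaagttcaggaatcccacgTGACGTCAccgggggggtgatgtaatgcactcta
Prkar1a: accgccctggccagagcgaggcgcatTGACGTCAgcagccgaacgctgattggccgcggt
The Gli consensus GACCACCCA, or its other strand TGGGTGGTC, was in 0 of the 98 member windows and in 0.253% of all windows. These matches describe letters in a window and are not evidence of binding.

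Total counts per library lay between 19581993 and 34779433, and the median standard error (SE) of a log2 fold change over members was 0.37 in recombined against wild type libraries. Relative to wild type libraries, Smo was higher in recombined libraries (log2 fold change 1.04 ± 0.22 SE) and so was the Hedgehog target Ptch1 (3.58 ± 0.44 SE), with adjusted p of 0.0115 and 0.000427 in the edgeR quasi-likelihood test. The entry of Smo joins its symbol with AK053708, and transcripts of SmoM2 and of the endogenous gene were not separated here. On the leading principal component (31.4% of variance), recombined libraries 1 to 4 lay at -25.65, -30.16, -140.2 and -101.9. The unrecombined and wild type libraries lay between 26.96 and 48.79. Recombined libraries 3 and 4 thus lay apart from the other 10, and recombined 1 and 2 lay on the same side of 0 as them. The library numbers in the labels fall in a 23 and a 24 series, and the 24 series holds recombined 3 and 4, unrecombined 3 and 4 and wild type 4. Salivary gland transcripts, summed over the 8 genes found of a marker list, were high in the libraries numbered 2, at 9592, 49610 and 19050 CPM (counts scaled to library size) in recombined 2, unrecombined 2 and wild type 2. They lay between 41.6 and 653 CPM in the other 9 libraries.

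Markers of several cell types differed between the groups. Basal and myoepithelial markers summed to 1710 to 7583 CPM in recombined libraries, 374 to 1020 CPM in unrecombined libraries and 740 to 959 CPM in wild type libraries. All 10 were tested, and 8 were higher in recombined than in wild type libraries. Luminal hormone-sensing markers summed to 649 to 1831 CPM in recombined libraries, 2664 to 4426 CPM in unrecombined libraries and 3137 to 5994 CPM in wild type libraries, and 7 of 8 were lower in recombined than in wild type libraries. Fibroblast markers summed to 205 to 571 CPM in recombined libraries, 5113 to 7268 CPM in unrecombined libraries and 1387 to 3392 CPM in wild type libraries, and 8 of 8 were lower in recombined libraries in both comparisons. The part of these cell types in the results on members below was not tested.

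**Figure D1:**
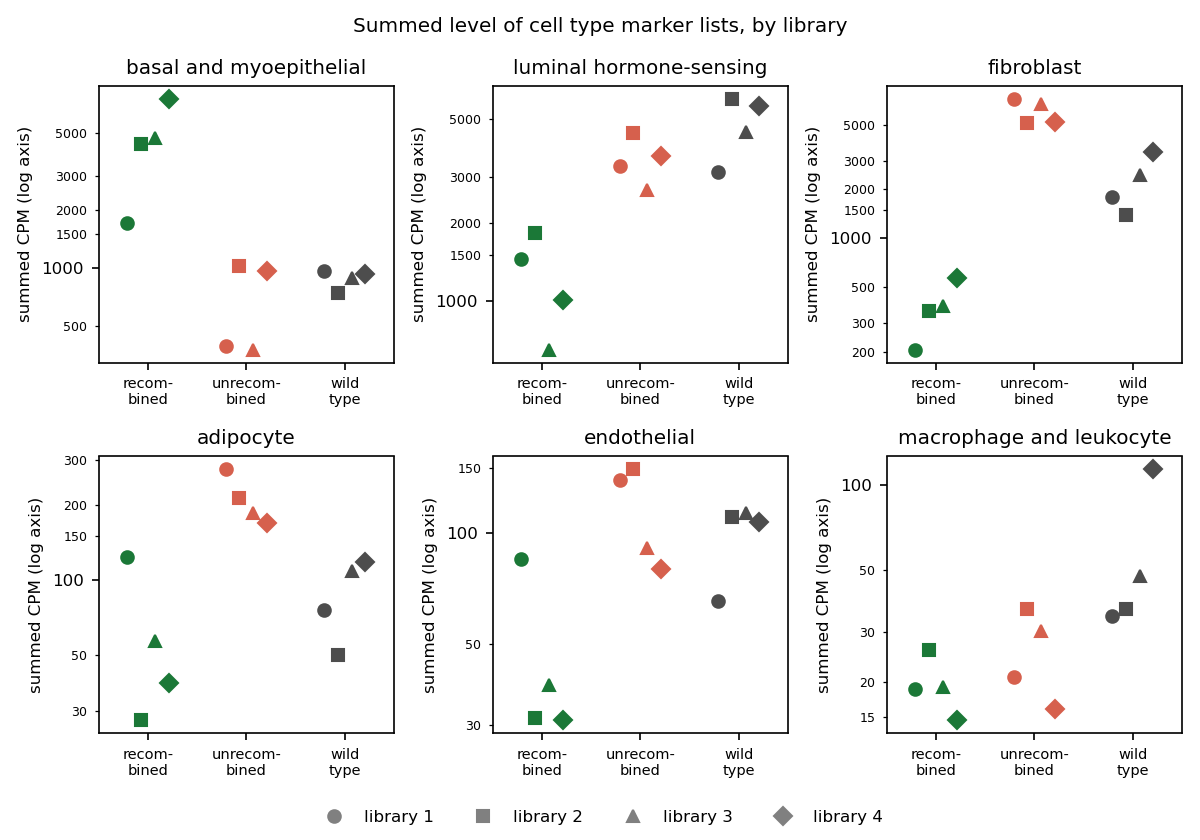
Summed level (CPM, log axis) of 6 lists of cell type markers in each library, with recombined, unrecombined and wild type libraries from left to right and the library number by symbol. Basal markers lie at 1710 CPM or more in the 4 recombined libraries and at 1020 CPM or less in the other 8, and fibroblast markers lie at 571 CPM or less in recombined libraries and at 1387 CPM or more in the others.

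Recombined against wild type cells sets green cells with SmoM2 against cells of animals without Cre. Adcy7 and Adcy2, both membrane adenylyl cyclases, were higher in recombined libraries, as were the phosphodiesterase Pde4b and the scaffold Pde4dip. These 4 of 57 tested members (7.02%) passed an adjusted p of 0.05, beside 6.55% of all 14039 loci tested. All 4 were higher (7.02%), and 0 were lower, beside 4.17% higher and 2.38% lower of all loci. With DESeq2 size factors in place of TMM scaling, 4 (7.02%) were higher and 1 (1.75%), Pde8b, was lower, beside 4.29% and 2.44% of all loci. An unadjusted p under 0.05 was found for 21 members (36.8%), beside 20.6% of all loci. The members' share was thus near that of all loci by adjusted p and above it by unadjusted p. The median log2 fold change of the tested members was 0.21, against -0.02 over all loci, with 35 members above 0 and 22 below.

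In recombined against unrecombined cells, the groups came from the same genotype and were sorted by whether Cre had acted. Their basal and fibroblast markers differed as well, as given above. Adcy7 and Adcy2 were higher here too, and the phosphodiesterases Pde3b and Pde8b were lower, which makes 4 of 57 tested members (7.02%) beside 5.22% of all loci. The 2 higher and 2 lower members (3.51% each) stand beside 3.08% and 2.14% of all loci, and 20 members (35.1%) had an unadjusted p under 0.05, beside 18% of all loci. Both comparisons share the recombined libraries, so their values are given side by side and not as support for each other. The median log2 fold change of the members was 0.03, against -0.01 over all loci. Libraries of these groups that share a number deviated together. With the replicate number as a block, over these 2 groups, 8 members (14.3%) passed instead of 4, beside 7.35% of all loci. Then 3 (5.36%: Adcy7, Akap2 and Pde4b) were higher and 5 (8.93%: Akap12, Pde1a, Pde3b, Pde7b and Prkar2b) were lower, beside 4.25% and 3.1% of all loci, while Adcy2 (adjusted p 0.216) and Pde8b (0.0569) did not pass.

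In unrecombined against wild type cells, 0 of 57 members and 0 of 14039 loci (0%) passed in the edgeR quasi-likelihood test. An unadjusted p under 0.05 was found for 5 members (8.77%), beside 3.85% of all loci. The smallest adjusted p of a member was 0.666, for Pde10a, a phosphodiesterase of both cyclic nucleotides that was named after its values were seen. It had 7.79, 7.05, 2.26 and 4.11 CPM in unrecombined libraries 1 to 4 and 0.852, 0.697, 1.18 and 1.04 CPM in wild type libraries, without overlap (log2 fold change 2.49 ± 0.74 SE). Without overlap, 2 members (3.51%) were higher and 1 (1.75%) was lower, beside 2.86% and 1.55% of all loci. DESeq2 and limma-voom also called 0 members, beside 0.595% and 0.178% of all loci.

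**Figure D2:**
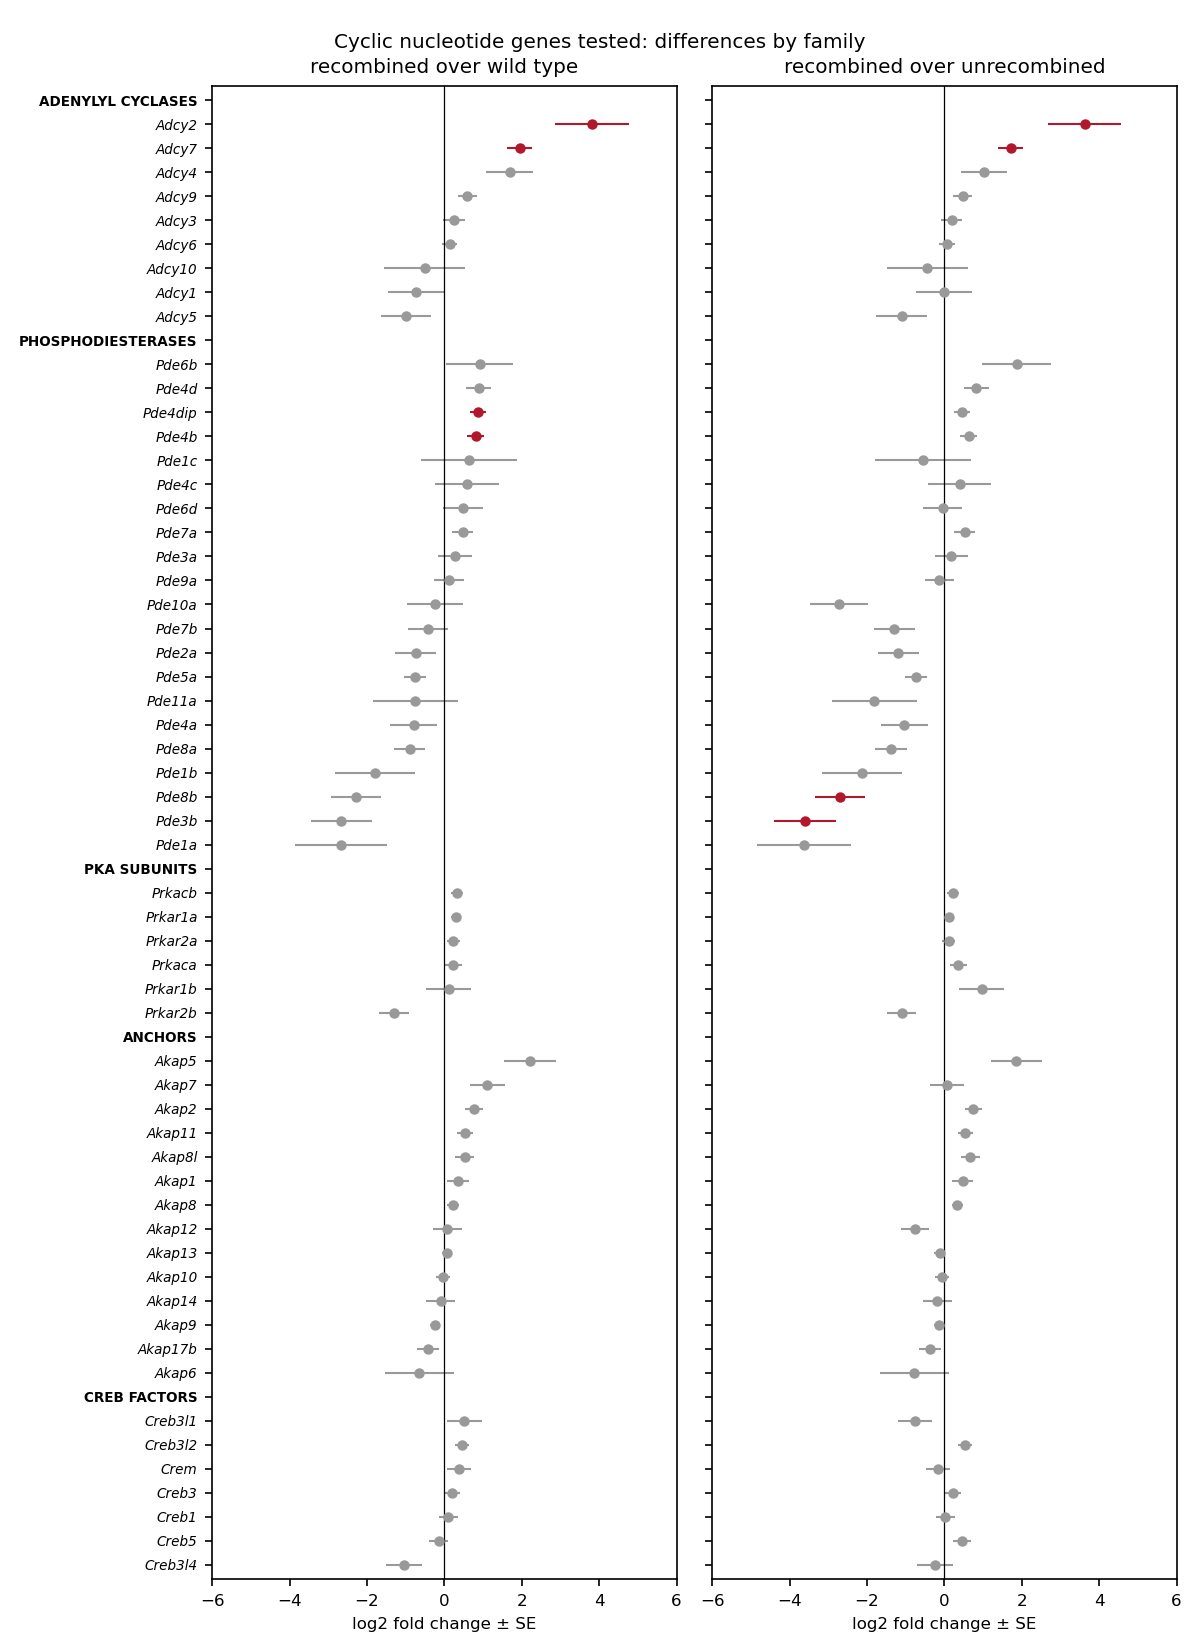
Log2 fold change ± SE of the 57 tested members by family, recombined over wild type libraries at left and recombined over unrecombined libraries at right (4 libraries per group), with members past an adjusted p of 0.05 in red. Values and calls are from the fit without the replicate block. Adcy2 and Adcy7 are red in both panels, Pde4b and Pde4dip at left only, and Pde3b and Pde8b at right only; Pde4dip, a scaffold, is drawn with the phosphodiesterases.

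Of the 9 cyclases tested, 2 were higher in recombined than in wild type libraries and in recombined than in unrecombined libraries, and 0 were lower in either. These 2 (22.2%) stand beside 6.55% and 5.22% of all loci called in the 2 comparisons, all without the replicate block. With the replicate block, Adcy7 passed over unrecombined libraries and Adcy2 did not (edgeR adjusted p 0.216). Adcy7, a cyclase that responds to beta-gamma subunits of G proteins, had 27.1, 54.8, 81.0 and 107.1 CPM in recombined libraries 1 to 4. It had 19.9, 25.8, 18.3 and 18.4 CPM in unrecombined libraries and 15.1, 20.3, 15.7 and 19.1 CPM in wild type libraries. Every recombined library lay above all 8 others, with the lowest, recombined 1, close to unrecombined 2. The log2 fold change was 1.94 ± 0.33 (SE) over wild type libraries and 1.71 ± 0.33 over unrecombined libraries, with edgeR adjusted p of 0.00333 and 0.00649. Adcy7 passed in both comparisons when any single library was left out. Without recombined 3 and 4 the adjusted p was 0.0514 over wild type libraries (log2 fold change 1.22) and 0.115 over unrecombined libraries (1.00). Within the 23 series the log2 fold changes of Adcy7 were 1.28 and 0.86 (adjusted p 0.187 and 0.578), and within the 24 series they were 2.31 and 2.36 (adjusted p 0.146 and 0.0443). The 24 series holds 1 wild type library, which is assumed to vary like the other groups, so its value over wild type has no replicate check. With the replicate block, the log2 fold change over unrecombined libraries was 1.56 ± 0.34 (adjusted p 0.0248).

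Adcy2, which like Adcy7 can be stimulated by beta-gamma subunits, had 4, 170, 189 and 99 counts in recombined libraries 1 to 4, or 0.120, 6.23, 10.2 and 4.08 CPM. It had 16, 11, 6 and 13 counts in unrecombined libraries and 4, 10, 15 and 8 in wild type libraries. Recombined 1 lay below all 8 libraries of the other groups in CPM, while the other 3 recombined libraries lay above them, so the groups overlapped. The log2 fold changes were 3.81 ± 0.96 (SE) over wild type libraries and 3.62 ± 0.95 over unrecombined libraries, with edgeR adjusted p of 0.0292 and 0.0398. Adcy2 passed over wild type libraries in 13 of 26 alternatives and over unrecombined libraries in 7 of 26. Leaving out recombined 2, recombined 3 or any 1 of the wild type libraries gave adjusted p of 0.0534 to 0.0949 over wild type libraries. Over unrecombined libraries, leaving out recombined 2, 3 or 4, any 1 of the unrecombined libraries, or wild type 3 or 4 gave 0.0531 to 0.115.

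Adcy6, the most abundant cyclase per length in wild type libraries, did not pass in either comparison. Per length of exons, in length-scaled CPM (RPKM), this calcium-inhibited cyclase had 6.56 ± 1.66 in recombined libraries, 6.24 ± 1.04 in unrecombined libraries and 5.98 ± 0.63 in wild type libraries (SD, n = 4 each). Adcy7 had 4.02, 8.14, 12.03 and 15.9 RPKM in recombined libraries, a mean of 3.06 ± 0.53 in unrecombined libraries and 2.61 ± 0.38 in wild type libraries. The level of Adcy7 per length exceeded that of Adcy6 in 3 of 4 recombined libraries, in 0 of 4 unrecombined libraries and in 0 of 4 wild type libraries. The exception was recombined 1, with 4.02 RPKM of Adcy7 and 7.72 RPKM of Adcy6. The means of Adcy7 and Adcy6 in recombined libraries did not differ beyond their spread.

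Adcy3, a calmodulin-responsive cyclase whose entry joins Cenpo and BC067010, had 11.8 to 36.6 CPM in recombined libraries, 18.2 to 23.6 CPM in unrecombined libraries and 16.3 to 22.2 CPM in wild type libraries. Adcy4, a cyclase of the same class as Adcy2 and Adcy7, was at 23.4 CPM in recombined 3 and at 3.04 to 4.33 CPM in the other 3 recombined libraries. Its log2 fold change over wild type libraries was 1.69 ± 0.61 (adjusted p 0.125), and without recombined 3 it was 0.52. Adcy9, a widely expressed cyclase named after its values were seen, did not overlap between recombined (12.5 to 19.7 CPM) and wild type libraries (8.65 to 11.9 CPM), with an adjusted p of 0.183. Levels of Adcy1, Adcy5 and Adcy10 were low, at 7.94 CPM or less in every library, and none of these passed.

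**Figure D3:**
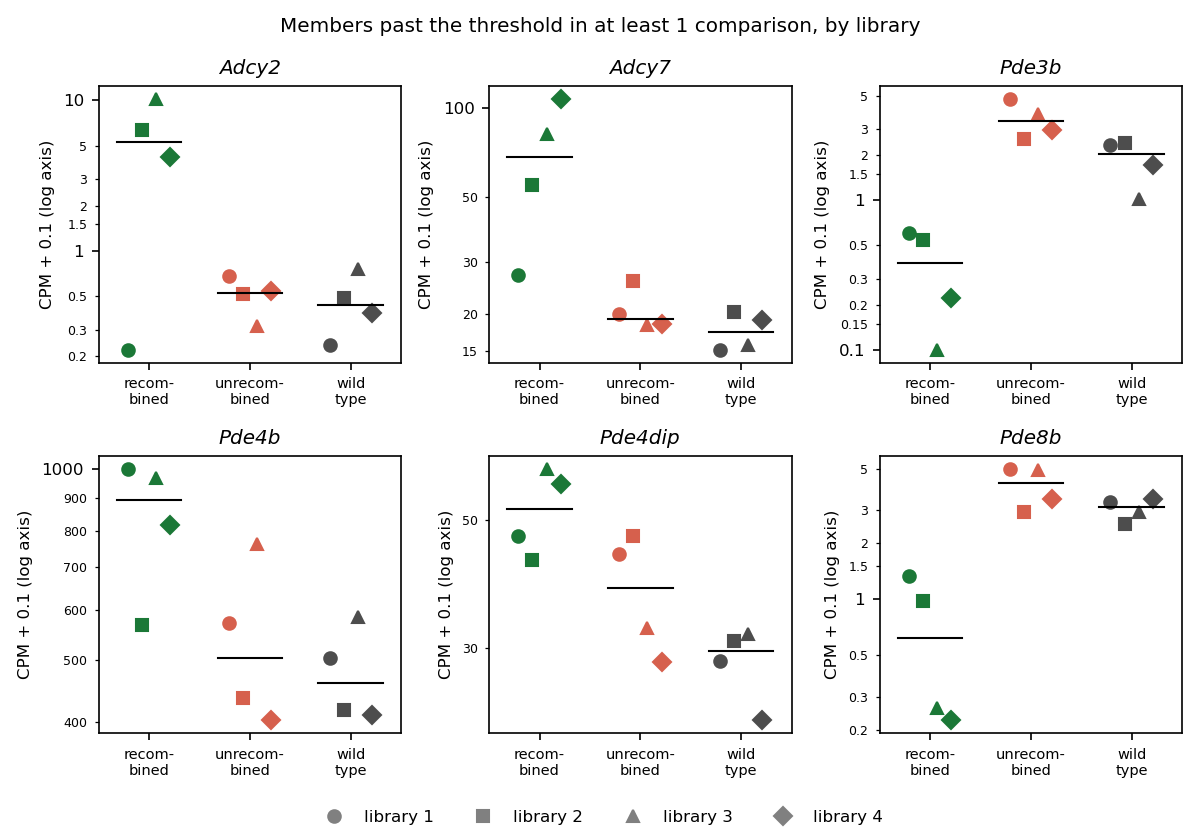
CPM + 0.1 (log axis) of the 6 members that passed in at least 1 comparison without the replicate block, in recombined, unrecombined and wild type libraries from left to right. Symbols give the library number and lines the group median. Recombined 1 is the lowest recombined library for Adcy2 and Adcy7, and all 4 recombined libraries lie below the other 8 for Pde3b and Pde8b.

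Of the 21 tested genes with a Pde symbol, 2 (9.52%) were higher in recombined than in wild type libraries and 0 were lower, beside 6.55% of all loci called. Against unrecombined libraries, 0 were higher and 2 (9.52%) were lower without the replicate block, beside 5.22% of all loci. With the replicate block, as given above, Pde4b was higher, Pde1a, Pde3b and Pde7b were lower, and Pde8b did not pass. Without the scaffold Pde4dip, 20 remained, with a median log2 fold change of -0.33 over wild type libraries and -0.89 over unrecombined libraries. Pde4b, a cAMP-specific phosphodiesterase, was the most abundant of them per length, at 79.4 ± 18.7 RPKM in recombined libraries, 51.4 ± 15.4 in unrecombined libraries and 45.3 ± 7.79 in wild type libraries (SD, n = 4 each). It had 999.9, 568, 969 and 815 CPM in recombined libraries 1 to 4, 572, 436, 761 and 402 CPM in unrecombined libraries, and 503, 418, 584 and 409 CPM in wild type libraries. Recombined 2 lay below wild type 3, so the groups overlapped. The log2 fold change of Pde4b was 0.81 ± 0.23 over wild type libraries (edgeR adjusted p 0.0478) and 0.63 ± 0.22 over unrecombined libraries (adjusted p 0.139). With the replicate block the log2 fold change over unrecombined libraries was 0.64 ± 0.14 (adjusted p 0.0251). The call over wild type libraries was lost without recombined 1, 3 or 4, unrecombined 1 or any 1 of the wild type libraries, with adjusted p of 0.0554 to 0.143.

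Pde4dip had 46.8, 42.5, 61.1 and 57.5 CPM in recombined libraries, 43.6, 46.7, 32.4 and 28.3 CPM in unrecombined libraries, and 28.4, 30.8, 31.7 and 22.4 CPM in wild type libraries. None of the recombined libraries overlapped with the wild type ones, while unrecombined 1 and 2 lay among them. The log2 fold change was 0.87 ± 0.21 over wild type libraries (edgeR adjusted p 0.0217) and 0.46 ± 0.21 over unrecombined libraries (adjusted p 0.252). Leaving out recombined 3, recombined 4, wild type 1 or wild type 4 gave adjusted p of 0.0507 to 0.0786 over wild type libraries. Pde4d, a cAMP-specific relative of Pde4b, had a log2 fold change of 0.89 ± 0.33 over wild type libraries (adjusted p 0.136), with recombined 3 highest at 167 CPM and the other recombined libraries at 55.6 to 77.1 CPM.

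Pde3b, a phosphodiesterase inhibited by cGMP and known for its role in insulin action in adipocytes, had 17, 12, 0 and 3 counts in recombined libraries 1 to 4. It had 129, 65, 102 and 84 counts in unrecombined libraries and 66, 60, 21 and 45 in wild type libraries. In recombined 3, the count of 0 allows a level of up to 0.162 CPM. All recombined libraries lay below all others. The log2 fold change of Pde3b was -3.60 ± 0.81 (SE) over unrecombined libraries and -2.66 ± 0.78 over wild type libraries, with edgeR adjusted p of 0.0173 and 0.0584. Without unrecombined 1 the adjusted p over unrecombined libraries was 0.0615, and with the replicate block it was 0.0456.

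Pde8b, a cAMP phosphodiesterase of high affinity, had 41, 24, 3 and 3 counts in recombined libraries, 135, 75, 135 and 98 in unrecombined libraries, and 95, 63, 65 and 93 in wild type libraries. The recombined libraries again lay below all others, with recombined 3 and 4 lowest. The log2 fold change was -2.70 ± 0.66 over unrecombined libraries (edgeR adjusted p 0.0272) and -2.28 ± 0.65 over wild type libraries (adjusted p 0.0518). Leaving out unrecombined 1, 3 or 4 gave adjusted p of 0.0540 to 0.0807 over unrecombined libraries. Without recombined 3 and 4 it was 0.0614, and Pde3b still passed.

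Markers of other cell types are given beside Pde3b and Pde8b. The adipocyte markers, 5 genes of which 2 were tested, summed to 27.5 to 123 CPM in recombined libraries, 169 to 277 CPM in unrecombined libraries and 50.2 to 118 CPM in wild type libraries, so that recombined libraries overlapped wild type and lay below unrecombined libraries. Of the 2 tested, Lpl was lower in recombined libraries in both comparisons, while Fabp4 was not called (log2 fold change 0.27 over wild type and -0.58 over unrecombined libraries). The endothelial markers, 6 genes, summed to 31.0 to 85.0 CPM in recombined libraries, 79.8 to 149 CPM in unrecombined libraries and 65.4 to 113 CPM in wild type libraries, and the sums of recombined libraries overlapped those of both other groups. Of these 6, 0 were called over wild type libraries and 1, Kdr, was lower over unrecombined libraries. No marker of these lists or of the fibroblast list was at 0 in all libraries. Their part in the levels of Pde3b and Pde8b was not tested.

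Further phosphodiesterases, named after their values were seen, lay lower in recombined libraries and did not pass in the fit without the replicate block. Pde1a, a calcium and calmodulin-dependent enzyme, had 37, 22, 1 and 0 counts in recombined libraries and 224, 161, 137 and 178 counts in unrecombined libraries, without overlap (log2 fold change -3.62 ± 1.22, adjusted p 0.116). With the replicate block its adjusted p was 0.0287. Pde10a and Pde8a did not overlap either between recombined and unrecombined libraries, with log2 fold changes of -2.73 ± 0.75 and -1.37 ± 0.41 and adjusted p of 0.0514 and 0.0750. The members without overlap between recombined and wild type libraries were Adcy7, Adcy9, Pde4dip, Prkacb, Akap2 and Akap5, which were higher, and Pde3b, Pde5a, Pde8b, Prkar2b and Akap9, which were lower. These 6 and 5 of 57 (10.5% and 8.77%) stand beside 6.33% and 5.91% of all loci. Between recombined and unrecombined libraries, 5 members were higher and 5 were lower without overlap (8.77% each), beside 5.57% and 5.71% of all loci.

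**Figure D4:**
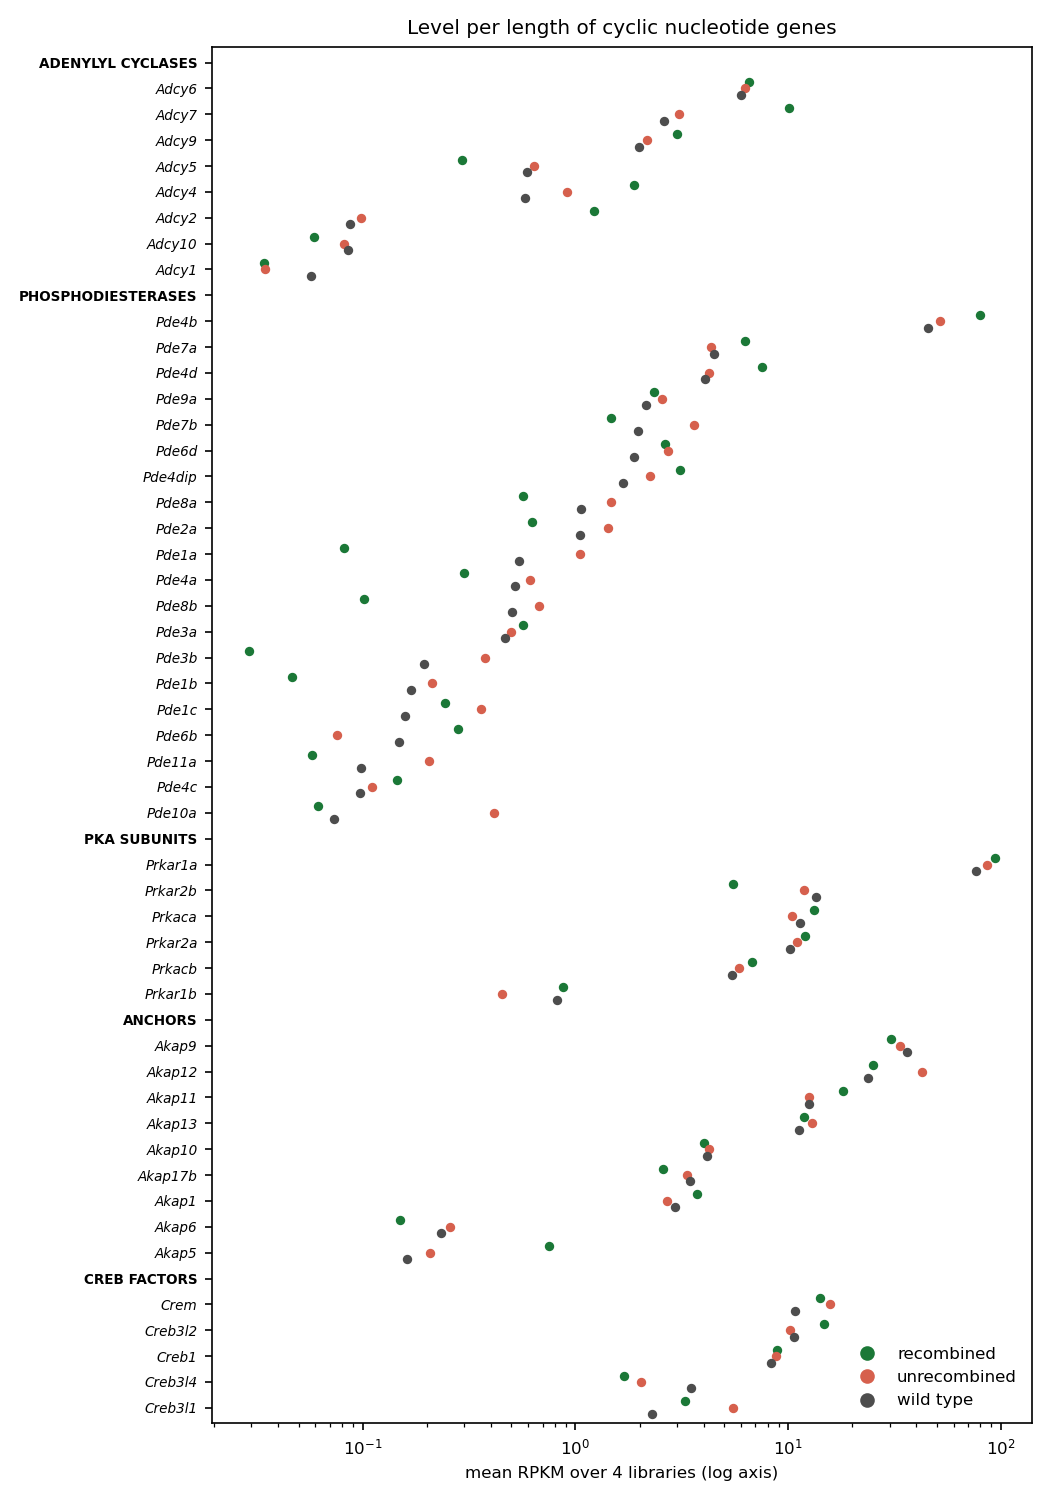
Mean RPKM over 4 libraries (log axis) of the tested members with a known exon length, by family and ordered by the wild type level, with recombined, unrecombined and wild type libraries as green, red and gray points. Pde4b and Prkar1a lie highest in all 3 groups, and the green points of Adcy7 and Adcy2 lie right of the others while those of Pde3b and Pde8b lie left.

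All 6 subunits of protein kinase A were tested, and without the replicate block 0 passed in either comparison, beside 6.55% and 5.22% of all loci. With the replicate block, Prkar2b was lower over unrecombined libraries, as given below. Prkar1a was the most abundant per length, at 93.4 ± 10.4 RPKM in recombined libraries, 86.0 ± 9.39 in unrecombined libraries and 76.1 ± 6.64 in wild type libraries. The catalytic subunits Prkaca and Prkacb lay lower, with 13.3 ± 3.54 and 6.78 ± 0.59 RPKM in recombined libraries, 10.4 ± 1.79 and 5.85 ± 0.71 in unrecombined libraries, and 11.4 ± 1.71 and 5.44 ± 0.54 in wild type libraries (SD, n = 4 each). Prkar2a, the regulatory subunit RII alpha, had 63.6 to 93.7 CPM in recombined libraries, 55.4 to 84.3 CPM in unrecombined libraries and 58.3 to 72.1 CPM in wild type libraries. Prkar1b, the RI beta subunit best known from neurons, lay at 5.54 CPM or less in every library.

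Log2 fold changes over wild type libraries were 0.22 ± 0.22 for Prkaca, 0.32 ± 0.15 for Prkacb, 0.30 ± 0.13 for Prkar1a, 0.23 ± 0.17 for Prkar2a and 0.11 ± 0.58 for Prkar1b, none of which passed. Prkar2b, the regulatory subunit RII beta, was the subunit with the smallest p. It had 30.4, 13.9, 11.5 and 24.5 CPM in recombined libraries, 60.1, 18.9, 34.5 and 59.6 CPM in unrecombined libraries, and 37.9, 43.7, 44.3 and 71.0 CPM in wild type libraries. Recombined libraries lay below all wild type libraries and overlapped with unrecombined 2. The log2 fold change of Prkar2b was -1.29 ± 0.38 over wild type libraries (adjusted p 0.0614) and -1.11 ± 0.38 over unrecombined libraries (adjusted p 0.126). With the replicate block it was -1.08 ± 0.23 over unrecombined libraries (adjusted p 0.0243).

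Of the 14 anchors tested, 0 passed in either comparison without the replicate block, beside 6.55% and 5.22% of all loci. With the replicate block, Akap2 was higher and Akap12 was lower over unrecombined libraries, as given below. Akap9, a large anchor of centrosomes and the Golgi, and Akap13, another large anchor, had log2 fold changes of -0.24 ± 0.12 and 0.07 ± 0.13 over wild type libraries. Akap9 had 596 to 706 CPM in recombined libraries, 674 to 753 CPM in unrecombined libraries and 711 to 913 CPM in wild type libraries. Akap11, an anchor that binds the regulatory subunits of type I and II kinase, had 157 to 257 CPM in recombined libraries, 113 to 172 CPM in unrecombined libraries and 104 to 175 CPM in wild type libraries (adjusted p 0.132 over wild type libraries). Akap2, whose entry joins Palm2, had 290, 330, 584 and 382 CPM in recombined libraries, 197, 288, 266 and 194 CPM in unrecombined libraries, and 235, 243, 280 and 179 CPM in wild type libraries. All recombined libraries were above all others, with recombined 1 (289.5 CPM) just above unrecombined 2 (288.5 CPM).

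The log2 fold changes of Akap2 were 0.76 ± 0.22 over wild type libraries and 0.74 ± 0.22 over unrecombined libraries (adjusted p 0.0590 and 0.0753), and with the replicate block 0.71 ± 0.16 over unrecombined libraries (adjusted p 0.0305). Akap5, an anchor of membranes and synapses, had 2.96, 5.61, 8.18 and 3.71 CPM in recombined libraries, 1.49, 1.77, 0.611 and 1.77 CPM in unrecombined libraries, and 1.12, 0.348, 2.53 and 0.430 CPM in wild type libraries. Its groups did not overlap either, and the log2 fold changes were 2.20 ± 0.67 and 1.86 ± 0.66 (adjusted p 0.0651 and 0.133). Akap12, a scaffold also called gravin and named after its values were seen, had 248, 105, 204 and 90.2 CPM in recombined libraries and 312, 248, 368 and 169 CPM in unrecombined libraries. In each of the 4 pairs of the same number the recombined library was lower, with a log2 fold change of -0.83 ± 0.15 under the replicate block (adjusted p 0.0123) and -0.76 ± 0.37 without it (adjusted p 0.304).

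Of the 7 CREB factors tested, 0 passed in either comparison, beside 6.55% and 5.22% of all loci. Creb1, the founding factor, had 96.5 to 150 CPM in recombined libraries, 93.6 to 170 CPM in unrecombined libraries and 84.7 to 173 CPM in wild type libraries, with a log2 fold change of 0.10 ± 0.24 over wild type libraries. Crem, a relative with activating and repressing isoforms that gene counts do not separate, had 49.3 to 129 CPM in recombined libraries, 47.4 to 120 CPM in unrecombined libraries and 53.0 to 81.4 CPM in wild type libraries. Creb3l2, a membrane-bound factor of the secretory pathway, had 76.8 to 141 CPM in recombined libraries and 71.3 to 76.4 CPM in unrecombined libraries, without overlap (log2 fold change 0.53 ± 0.19, adjusted p 0.133). Creb5, whose entry joins 9430076C15Rik, had 146 to 218 CPM in recombined libraries, 77.5 to 145 CPM in unrecombined libraries and 115 to 244 CPM in wild type libraries (log2 fold changes 0.46 ± 0.24 and -0.15 ± 0.24 over unrecombined and wild type libraries). Creb3l4 had a log2 fold change of -1.04 ± 0.47 over wild type libraries (adjusted p 0.227).

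Adcy8, Pde1c and Creb1 were highest in the library numbered 2 of each group, the libraries with the most salivary gland transcripts. These libraries also share a number, so the salivary level and the library number cannot be told apart. The part of the salivary transcripts in these levels was not tested. Adcy8, a calcium-stimulated cyclase, had 6, 357, 0 and 0 counts in recombined libraries, 0, 379, 0 and 0 in unrecombined libraries and 3, 4, 0 and 0 in wild type libraries. It was thus high in recombined 2 and unrecombined 2, and low in wild type 2, although that library held 19050 CPM of the salivary list. Pde1c, a calcium and calmodulin-dependent phosphodiesterase, had 42, 466, 19 and 7 counts in recombined libraries, 25, 651, 39 and 58 in unrecombined libraries and 54, 189, 52 and 34 in wild type libraries, highest in the library numbered 2 of each group. Creb1 was highest in the same 3 libraries, at 150, 170 and 173 CPM in recombined 2, unrecombined 2 and wild type 2. Adcy8 and Pde1c were named after their values were seen. In libraries with under 100 CPM of the salivary list, 6 members (10.5%) passed in recombined against wild type libraries, beside 6.92% of all loci, and 4 (7.02%) in recombined against unrecombined libraries, beside 3.94% of all loci. The libraries in these fits were recombined 3 and 4, unrecombined 3 and 4, and wild type 1, 3 and 4. Adcy7 was among the members that passed in both. Without recombined 3 and 4, Adcy7 did not pass in either comparison, as given above.

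**Figure D5:**
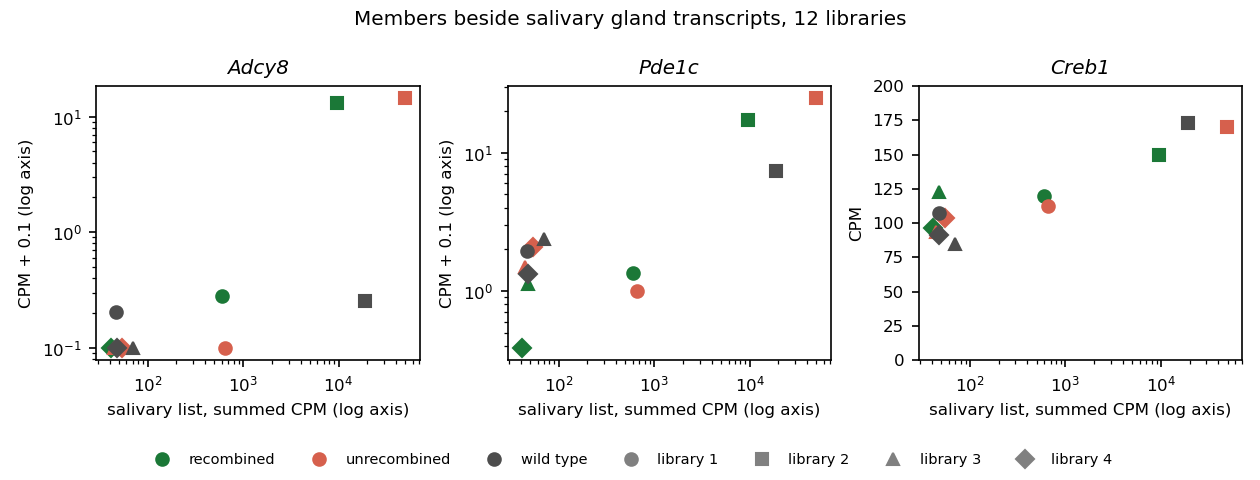
Level of Adcy8 and Pde1c (CPM + 0.1, log axis) and Creb1 (CPM) against the summed CPM of the salivary gland list (log axis) in 12 libraries, colored by group with the library number by symbol. The 3 libraries numbered 2 lie at 9592 CPM or more of the salivary list and hold the highest Pde1c and Creb1 of their groups, while Adcy8 is high in only 2 of them.

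Outside the symbol patterns, 53 further genes of the pathway were listed, of which 52 were found and 45 tested. The list was chosen with earlier results of these data known, so its share of called genes may reflect that choice. In recombined against wild type libraries 5 were higher and 2 lower, and in recombined against unrecombined libraries 4 were higher and 1 lower, beside the 6.55% and 5.22% of all loci given above (15.6% and 11.1% of the 45). With the replicate block, over recombined and unrecombined libraries, 4 were higher and 2 lower of 43 tested, beside 7.35% of all loci. Areg and Nr4a2 were then among the called genes and Popdc2 was not. Among 11 tested receptors that couple to stimulatory G proteins, Calcrl, a receptor for calcitonin-related peptides that is prominent in endothelium, was lower than in unrecombined libraries, at 10.9 to 30.2 CPM in recombined libraries, 51.1 to 137 CPM in unrecombined libraries and 24.8 to 40.5 CPM in wild type libraries (log2 fold change -2.29 ± 0.34 over unrecombined libraries, adjusted p 0.00106). Gpr161, a ciliary receptor that restrains the Hedgehog pathway and was named after its values were seen, did not pass (log2 fold change 0.85 ± 1.15 over wild type libraries).

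Of the 3 PKA inhibitor genes, Pkig was lower in recombined libraries, at 7.37 ± 2.55 CPM against 15.4 ± 4.31 CPM in unrecombined and 18.1 ± 3.37 CPM in wild type libraries (SD, n = 4 each). Its log2 fold changes were -1.29 ± 0.29 over wild type libraries (edgeR adjusted p 0.0164, and 0.0511 without wild type 1) and -1.06 ± 0.29 over unrecombined libraries (adjusted p 0.0504). On the cGMP side, Prkg1, the cGMP-dependent kinase of smooth muscle, whose entry joins Prkg1b, had 63.0, 105, 115 and 128 CPM in recombined libraries, 45.3, 47.6, 27.0 and 37.6 CPM in unrecombined libraries, and 36.6, 32.5, 36.3 and 36.0 CPM in wild type libraries. All recombined libraries were above all others, with log2 fold changes of 1.54 ± 0.23 and 1.38 ± 0.23 over wild type and unrecombined libraries (edgeR adjusted p 0.00131 and 0.00216). Prkg1 rose beside the basal and myoepithelial markers given above, and their part in its level was not tested. Npr2, a natriuretic peptide receptor that makes cGMP, passed over wild type libraries (adjusted p 0.0408), with 51.9 CPM in recombined 3 and 8.51 to 16.9 CPM in the other recombined libraries, and without recombined 3, any 1 of the unrecombined or any 1 of the wild type libraries its adjusted p was 0.0505 to 0.121. Of 3 other cAMP effectors tested, Popdc2, a cAMP-binding membrane protein, passed over unrecombined libraries (adjusted p 0.0407) with 15.8 CPM in recombined 4 and at most 1.70 CPM in the other recombined libraries. Without recombined 4, unrecombined 1, 2 or 4, or wild type 2, 3 or 4 its adjusted p was 0.0501 to 0.198. The efflux pump gene Abcc4 did not pass (log2 fold change 0.58 ± 0.74 over wild type libraries).

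Among the 9 CREB coactivators and their kinases, 0 passed, with log2 fold changes over wild type libraries of 0.26 ± 0.17 for the kinase Sik2 and 0.21 ± 0.15 for the coactivator Crebbp. Of the 10 tested textbook CREB targets, Bdnf and Nr4a2 were higher and Areg was lower than in wild type libraries. Bdnf, a neurotrophin, had 45.3 ± 22.1 CPM in recombined libraries, 9.30 ± 3.45 CPM in unrecombined libraries and 13.4 ± 4.71 CPM in wild type libraries (SD, n = 4 each), with log2 fold changes of 1.76 ± 0.39 over wild type and 2.28 ± 0.39 over unrecombined libraries (edgeR adjusted p 0.0147 and 0.00320). Without wild type 3 or wild type 4 the adjusted p of Bdnf over wild type libraries was 0.0526 and 0.0580. Nr4a2, an orphan nuclear receptor, had 137 to 376 CPM in recombined libraries, 66.6 to 235 CPM in unrecombined libraries and 56.4 to 100.2 CPM in wild type libraries (log2 fold change 1.48 ± 0.40 over wild type libraries, adjusted p 0.0409), and without recombined 1, 3 or 4, unrecombined 1 or any 1 of the wild type libraries its adjusted p was 0.0531 to 0.141. Areg, an epidermal growth factor ligand of hormone-sensing cells, had 36.3 to 189 CPM in recombined libraries, 173 to 375 CPM in unrecombined libraries and 217 to 592 CPM in wild type libraries (log2 fold change -1.86 ± 0.44 over wild type libraries, adjusted p 0.0235), and without recombined 1 or 4 or wild type 1 or 2 its adjusted p was 0.0507 to 0.0757. Areg is itself in the hormone-sensing marker list, which was lower in recombined libraries. The targets thus passed in both directions.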

How the data were processed

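RNA of 12 libraries was analysed from the gene counts deposited by the authors. Per the submitters' processing notes, the tools were STAR and HTSeq 0.3.1 and the build was mm9. Strand, options and annotation are not given in the sources used here, so reads of genes that overlap, on either strand, may not be separated. The values are whole-number counts. Only entries that name 1 locus were used (20114 of 36635); the others held 0.0617% to 0.101% of a library. The entries of 9 members join several symbols (Adcy3, Akap2, Akap7, Akap8, Akap8l, Akap14, Creb3, Creb5, Pde5a) and may hold reads of a neighbor.

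The default filter of edgeR left 14039 loci. Counts were scaled by TMM and tested with the two-sided quasi-likelihood F test of edgeR 4.0.16 (R 4.3.3), all 12 libraries in 1 fit, with Benjamini-Hochberg adjustment over all loci and a threshold of 0.05. CPM are relative to TMM-scaled library sizes. RPKM use union exon lengths of GENCODE M21 (GRCm38), known for 54 members, not the annotation used by the authors. A count of 0 was taken to allow up to 3 counts, for counting error only. The fit was also run on counts simulated for independent libraries, with the spread estimated from these data. The simulated counts held no pairing, library series or mixture of cell types, so they cannot speak to these. Promoters came from RefSeq (GRCm38.p6), while counts are on mm9.

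Named members were those called in a comparison, the 3 most abundant and the 3 with the smallest p in each family, and all subunits of protein kinase A; of the further pathway genes, those called and, in lists with none, the one with the smallest p. Adcy8, Adcy9, Pde1a, Pde1c, Pde5a, Pde6c, Pde7b, Pde8a, Pde10a, Akap12 and Gpr161 were named after their values were seen, as were members named only as low or untested. The values of 1 called pathway gene are not reported here. Members and lists were chosen with earlier results of these data known.

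Libraries were checked for pairing by correlating their deviations from group means. Recombined and unrecombined libraries of the same number correlated (r of 0.239, 0.399, 0.244 and 0.298), while r of different numbers lay between -0.240 and -0.0345. These numbers were taken as paired. Deviations from a group mean sum to 0, so the negative r of different numbers are not separate support. For wild type libraries 1 to 4, r with the same number was -0.0314, 0.185, 0.109 and 0.125 in recombined and 0.00248, 0.312, 0.157 and 0.159 in unrecombined libraries. Some libraries of different numbers correlated as well, with r of 0.169 for recombined 4 with wild type 1 and 0.337 for unrecombined 4 with wild type 1. Pairing required every pair of a comparison to correlate, and number 1 did not. Wild type libraries were thus not taken as paired, although the other 3 numbers correlated.

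Alternatives were DESeq2 size factors, upper quartile scaling, DESeq2's own Wald test (1.42.0), limma-voom 3.58.1 with and without library weights, no filter, a stricter filter (1 CPM in 4 libraries), only the groups compared, the library series as a covariate or the 23 series alone, recombined 3 and 4 left out, the salivary level as a covariate, the replicate block and each library left out in turn. Fits of the libraries under 100 CPM of salivary transcripts and of the 24 series alone were chosen after seeing the data.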

Additional observations from a re-analysis of the deposited data

Results flagged for a closer look

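Of the 26 named members, 3 had 1 library far from the other 3 of its group, by Dixon's test on 78 groups of 4 libraries (3.85%; chance gives about 1 in 20). Adcy4 had 23.42 CPM in recombined 3, against 3.04 to 4.33 CPM in the other recombined libraries. Akap9 had 913.4 CPM in wild type 2, against 710.9 to 734.3 CPM in the other wild type libraries. Creb5 had 77.47 CPM in unrecombined 2, against 138 to 145 CPM in the other unrecombined libraries. The last 2 are libraries with high salivary gland transcripts, at 19050 and 49610 CPM of the salivary list, and the part of these in the values was not tested.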

How the results depend on the processing

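No called difference of a member or pathway gene reversed its direction in any alternative run. Differences that were not called could change sign, as for Pde4dip in recombined against unrecombined libraries (log2 fold changes of -0.004 to 0.99). Adcy7 passed in 24 of 27 alternatives over wild type libraries and in 25 of 27 over unrecombined libraries. Members called numbered 4 in recombined against wild type libraries and 4 in recombined against unrecombined libraries. These counts were 10 and 10 with the Wald test of DESeq2 (11.8% and 9.69% of all loci), 2 and 1 with only the groups compared (4.43% and 3.98%), 0 and 0 in the 23 series (0.515% and 0.728% of all loci), 0 and 1 in the 24 series (0.114% and 0.769%), and 0 and 1 (Pde3b) without recombined 3 and 4 (1.66% and 1.88%). The 24 series holds 1 wild type library, assumed to vary like the other groups. Over wild type libraries the count was 2 with limma-voom library weights (4.78% of all loci) and 2 with the library series as a covariate (5.36%). With each library left out in turn it lay between 1 and 7 in both comparisons. The share of all loci then lay between 3.49% and 8.46% over wild type libraries and between 3.12% and 7.26% over unrecombined libraries. The replicate block gave 8 and 8 (8.5% and 7.35% of all loci). Over wild type libraries it added Akap2, Pde3b, Pde8b and Prkar2b. There 3 of 4 same-number pairs correlated and number 1 did not, so pairing was not taken. Recombined 4 with wild type 1, of different numbers, had an r of 0.169. The further pathway genes called numbered 7 and 5, against 0 and 1 in the 23 series, 0 and 0 in the 24 series, 1 and 2 without recombined 3 and 4, 11 over wild type libraries with the replicate block, and 8 over unrecombined libraries with the Wald test of DESeq2. Leaving out 1 library gave 3 to 7 and 3 to 9, beside the shares of all loci given above for these fits. In unrecombined against wild type libraries 0 members passed in every alternative, and 1 further gene (Calcrl) passed with DESeq2 and with limma-voom library weights. The cause of these shifts was not tested. The series and leave-out fits also hold fewer libraries. Low counts limit Adcy2, Akap5, Pde1a, Pde3b and Pde8b, whose SE lay between 0.65 and 1.22, against a median of 0.37.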

Other observations

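Pde6c, the cone photoreceptor phosphodiesterase and an untested member chosen after its values were seen, had 0 counts in all 4 recombined libraries, 3, 0, 3 and 8 counts in unrecombined libraries and 6, 37, 16 and 7 counts in wild type libraries. It was called lower over wild type libraries only when no filter on low counts was used.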
